A study of Mus musculus with 10 samples.

Results

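The genes described here are the 30 receptor genes for serotonin (12), dopamine (5), adrenaline and noradrenaline (8) and muscarinic acetylcholine signals (5) that were listed by symbol among the 55487 genes of the deposited table of gene levels. They were chosen by receptor family, with earlier results of these data known. RNA was sequenced from the cerebral cortex of mice at postnatal day 18. One group, Usp7 cKO; Trp53+/- (5 animals), carried Usp7 fl/fl with NEX-cre, which removes a floxed part of Usp7 in glutamatergic neurons of the forebrain and leaves it in interneurons, glia and vessels. The other, Usp7 WT; Trp53+/- (5 animals), kept Usp7, and both groups were Trp53+/-, with 1 intact copy of that gene. Whether the Usp7 WT animals carried Cre is not stated in the labels. USP7 is a deubiquitinase, an enzyme that takes ubiquitin off other proteins. The comparison asks how the levels and exon use of these receptor genes differed between the genotypes.

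All of these receptors are G protein-coupled: a transmitter released by long-range axons from the brainstem, midbrain or basal forebrain binds the receptor, and the receptor turns on a G protein inside the cell. Receptors that couple to Gq switch on phospholipase C, those that couple to Gs raise cyclic AMP, and those that couple to Gi lower it. In cortex they set how excitable pyramidal neurons and interneurons are and how much transmitter their terminals release.

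The depth was 42628526 to 51797145 reads over all exon bins of a library. Usp7 ranged from 48.3 to 61.9 TPM (a transcript level scaled for gene length and library total) in Usp7 WT and from 31.6 to 40.9 TPM in Usp7 cKO. Neurod6, the gene whose locus drives NEX-cre, ranged from 50.1 to 54.4 TPM and from 21.5 to 26.6 TPM, so a change tied to Neurod6 or to Cre cannot be told apart from loss of Usp7. Sex-linked transcripts went against the labelled sex in 2 libraries, Usp7 WT replicate 2 and Usp7 cKO replicate 1, which are shown as open squares in the plots, and values without both are given below. By those transcripts, Usp7 WT replicates 1 and 5 and Usp7 cKO replicates 1, 2, 3 and 5 were female. The others were male, so sex by transcripts was not balanced between the genotypes. Library numbers follow genotype in the bin table, and the effects of those orders cannot be told apart. Cortical glutamatergic markers were present in every library, with no marker at 0, and their summed level was 3386 to 3788 TPM in Usp7 WT and 2459 to 2981 TPM in Usp7 cKO.

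Receptor genes differed between the genotypes in both directions, with 8 higher and 8 lower in Usp7 cKO of the 29 that could be tested. The serotonin receptor Htr2a fell to 0.456 times its Usp7 WT mean and the muscarinic receptor Chrm3 to 0.667 times, while the serotonin receptor Htr1d reached 3.33 times and the adrenergic receptor Adrb3 2.35 times its Usp7 WT mean. Levels were tested with limma on log2(TPM + 0.5) with the labelled sex as covariate, and a gene was called at an adjusted p under 0.05 over all 27580 genes tested. Of all those genes 13.9% were called, 9.22% higher and 4.67% lower. Among the receptor genes 16 of 29 were called (55.2%), and the median change was 0.13 on the log2 scale against 0.06 over all genes tested. The remaining receptor, Drd3, stayed under the minimum mean of 0.5 TPM and ranged from 0 to 0.897 TPM. The groups did not overlap in 14 of the 29 (8 higher, 6 lower), all of them called, and in 12.8% of all genes tested. The labels name 5 sex- and litter-matched pairs of animals without saying which libraries form a pair.

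**Figure D1:**
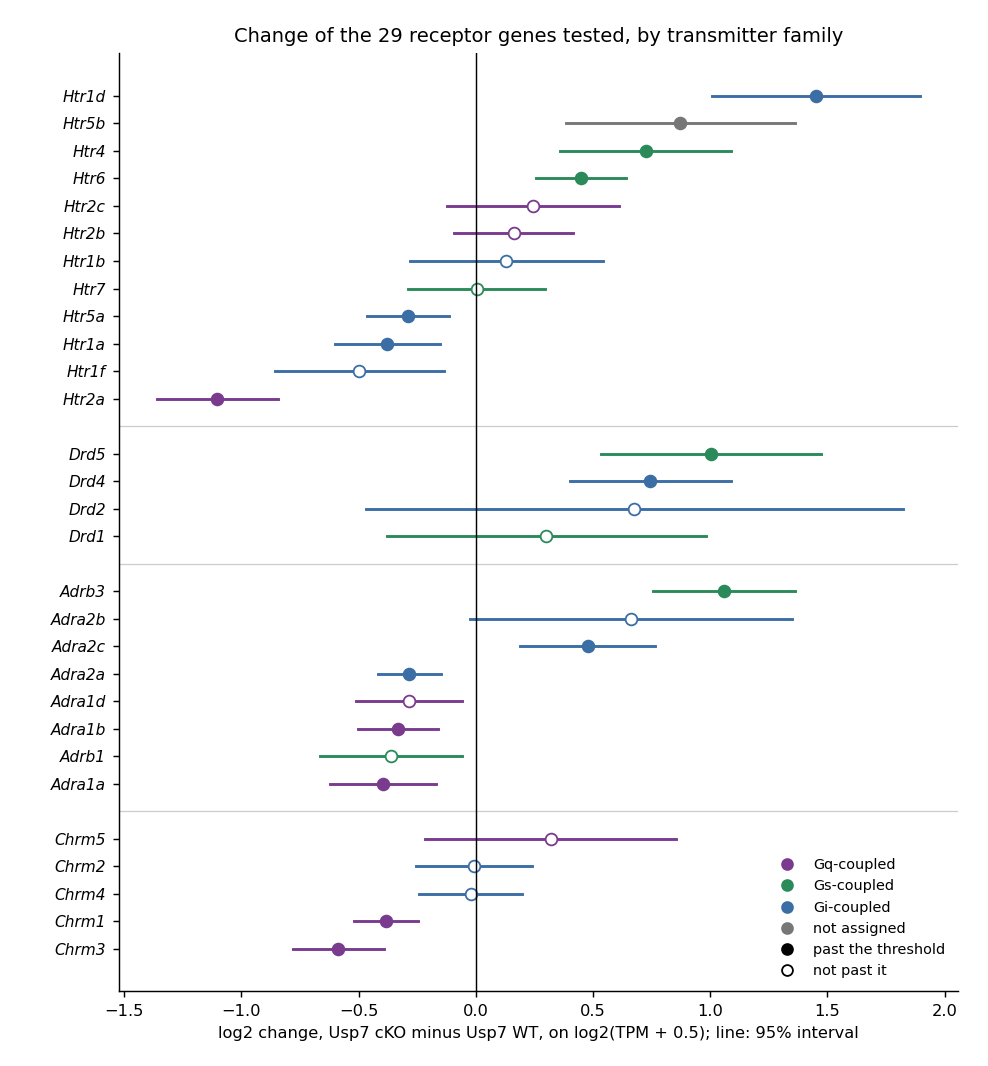
Log2 change (horizontal axis, Usp7 cKO minus Usp7 WT, on log2(TPM + 0.5)) with its 95% interval for each of the 29 receptor genes tested, in blocks by transmitter family, from serotonin at the top to muscarinic at the bottom. Colour gives the G protein a receptor couples to and filled points passed the threshold; Htr1d (1.45) and Htr2a (-1.10) lie farthest from 0, and no Gq-coupled receptor passed the threshold as higher.

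Htr2a encodes the 5-HT2A receptor, a Gq-coupled receptor of cortical pyramidal neurons and the target through which psychedelics act. The gene (ENSMUSG00000034997) lies on chromosome 14, 74640840 to 74709494, plus strand, GRCm38, with 3 exons. Its level in Usp7 WT replicates 1 to 5 was 24.7, 27.1, 28.9, 20.5 and 27.7 TPM, and in Usp7 cKO replicates 1 to 5 it was 14.6, 10.6, 10.2, 12.5 and 10.8 TPM. Every Usp7 cKO library lay below every Usp7 WT library. The means were 25.8 ± 3.33 and 11.7 ± 1.80 TPM (SD, n = 5 per group), a log2 change of -1.10 (SE 0.116, limma adjusted p = 0.000213). In whole tissue, fewer cells that express a gene and less RNA of it per cell cannot be told apart, here and for every other gene below. Of the 12 cortical glutamatergic markers 9 also fell, by 0.23 to 0.68 on the log2 scale, and their part in the receptor changes was not tested.

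A further pair of serotonin receptors, of the inhibitory Gi type, fell by less. Htr1a encodes 5-HT1A, the autoreceptor of serotonin neurons and an inhibitory receptor of cortical cells. It ran at 13.7, 16.6, 19.5, 16.6 and 16.8 TPM in Usp7 WT and 12.9, 12.9, 13.9, 10.8 and 12.8 TPM in Usp7 cKO, and the groups overlapped because Usp7 WT replicate 1 lay below Usp7 cKO replicate 3. Its log2 change was -0.38 (SE 0.101, limma adjusted p = 0.0326). Htr5a, which encodes 5-HT5A, was at 16.5, 18.6, 19.7, 16.3 and 19.2 TPM in Usp7 WT and 15.9, 14.3, 15.5, 13.96 and 13.6 TPM in Usp7 cKO. The highest Usp7 cKO library, replicate 1, fell just short of the lowest Usp7 WT library, and the change was -0.29 (SE 0.0787, limma adjusted p = 0.0345). Both calls were fragile. The call of Htr1a was lost on leaving out any of Usp7 WT replicates 2 to 5 or Usp7 cKO replicates 1, 2, 4 and 5, with an adjusted p of 0.0585 to 0.0758. That of Htr5a was lost without any of Usp7 WT replicates 2, 3 and 5 or Usp7 cKO replicates 2, 4 and 5, with an adjusted p of 0.0682 to 0.0898.

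Htr1d encodes 5-HT1D, a Gi-coupled receptor of axon terminals and, with 5-HT1B, a target of the triptans used against migraine. Among the receptor genes called it had the largest rise. Its level was 1.29, 0.966, 1.45, 1.21 and 2.16 TPM in Usp7 WT and 4.95, 4.88, 3.10, 4.81 and 5.83 TPM in Usp7 cKO. All Usp7 cKO libraries lay above all Usp7 WT libraries, with Usp7 cKO replicate 3 the closest to them. The means were 1.41 ± 0.450 and 4.71 ± 0.995 TPM (SD, n = 5), a log2 change of 1.45 (SE 0.2002, limma adjusted p = 0.00113), from 30 to 175 reads per library over the gene's bins. The gene (ENSMUSG00000070687) lies on chromosome 4, 136423524 to 136444398, plus strand, GRCm38, and its coding sequence lies in a single exon.

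RefSeq lists 2 start sites for Htr1d, and the bins next to them show which one the reads of the gene lie beside. Reads in the first exon after the downstream start (136424612 to 136424750) numbered 3, 2, 2, 0 and 4 in Usp7 WT and 7, 9, 2, 9 and 14 in Usp7 cKO. The longest bin next to the upstream start (136423598 to 136423775) held 1 read in Usp7 WT replicate 4, 2 reads in Usp7 cKO replicate 5 and none in the other libraries. Counts at both starts are small and were not tested. The 250 bases before each start are printed because they differ in base composition, from RefSeq on GRCm38.p6, plus strand, with motif matches in capitals. The first sequence is chr4:136423274-136423523 and the second is chr4:136424362-136424611.
Htr1d upstream start: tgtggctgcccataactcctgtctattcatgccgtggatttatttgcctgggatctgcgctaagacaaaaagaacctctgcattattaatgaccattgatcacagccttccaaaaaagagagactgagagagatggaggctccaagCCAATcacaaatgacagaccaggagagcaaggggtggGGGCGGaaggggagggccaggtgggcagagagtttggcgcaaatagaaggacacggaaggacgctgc
Htr1d downstream start: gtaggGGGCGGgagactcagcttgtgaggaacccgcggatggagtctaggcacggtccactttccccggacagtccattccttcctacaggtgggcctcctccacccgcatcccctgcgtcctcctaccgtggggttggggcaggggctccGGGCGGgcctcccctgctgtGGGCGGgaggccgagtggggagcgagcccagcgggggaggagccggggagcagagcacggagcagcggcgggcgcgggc
The downstream sequence, the one beside the reads, holds 20 CpG pairs and 72.4% G or C, and the upstream one 6 CpG pairs and 51.6%. Over 32851 promoters of this length the median is 6 CpG pairs. Motifs were searched on both strands as letters, of which TATAAA is found in 12.4% of promoters, CCAAT in 33.85%, the GC box GGGCGG in 32.7%, the cyclic AMP response element TGACGTCA in 1.55%, the E-box CAGATG in 14.4% and the AP-1 site TGACTCA in 4.46%, and none of these contains another. The downstream sequence matched the GC box 3 times, and the upstream one matched CCAAT and the GC box once each.

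Among the Gs-coupled serotonin receptors, Htr6 and Htr4 rose. Htr6 encodes 5-HT6, a receptor found at the primary cilium of neurons. It was at 13.6, 12.7, 14.9, 15.3 and 13.4 TPM in Usp7 WT and 17.1, 19.5, 18.3, 19.1 and 22.7 TPM in Usp7 cKO. The groups did not overlap, and the log2 change was 0.45 (SE 0.0870, limma adjusted p = 0.00745). Htr4, which encodes 5-HT4, rose from 1.96, 1.81, 2.25, 2.23 and 2.57 TPM to 3.32, 3.65, 5.28, 2.78 and 4.85 TPM (log2 0.72, SE 0.164, limma adjusted p = 0.0160). Here too no Usp7 cKO library reached down to the Usp7 WT range, although Usp7 cKO replicate 4 came close.

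Htr5b encodes 5-HT5B, a receptor of rodents whose human gene is not functional, and its coupling is not settled. It was at 1.58, 2.72, 2.66, 3.55 and 2.29 TPM in Usp7 WT and 3.72, 4.81, 6.53, 3.85 and 6.69 TPM in Usp7 cKO. The groups did not overlap, but Usp7 WT replicate 4 and Usp7 cKO replicate 1 were neighbours. The change of 0.87 (SE 0.219, limma adjusted p = 0.0253) lost its call on leaving out 1 library, which could be replicate 1 or 5 of Usp7 WT and replicate 3 or 5 of Usp7 cKO (adjusted p 0.0522 to 0.0657).

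The other 5 serotonin receptors were not called. Htr1f, a Gi-coupled receptor, ranged from 6.35 to 12.1 TPM in Usp7 WT and from 5.56 to 7.03 TPM in Usp7 cKO (log2 -0.50, limma adjusted p = 0.0712), and it was called without Usp7 WT replicate 4 (-0.66, adjusted p = 0.00715). Htr1b, the other triptan target, ranged from 3.93 to 6.26 TPM and from 3.898 to 7.51 TPM (log2 0.13, 95% interval -0.28 to 0.54). Htr7, a Gs-coupled receptor, was at 10.2, 9.31, 7.80, 10.8 and 8.66 TPM in Usp7 WT and 9.05, 10.98, 10.6, 9.29 and 7.13 TPM in Usp7 cKO. Its groups overlapped fully and its change was 0.00 with a 95% interval of -0.29 to 0.29. Htr2b ranged from 3.57 to 4.51 and from 3.55 to 5.35 TPM. It lies on the opposite strand within Psmd1, a proteasome subunit at 40.8 TPM in Usp7 WT, against 43.6 TPM in Usp7 cKO, and the counting strand is not given in the sources used here, so its level is uncertain.

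Htr2c encodes 5-HT2C, a Gq-coupled receptor best known from the choroid plexus and striatum. It ranged from 5.38 to 9.16 TPM in Usp7 WT and from 6.78 to 10.4 TPM in Usp7 cKO (log2 0.24, 95% interval -0.12 to 0.61). The summed level of 7 choroid plexus markers ranged from 33.1 to 898 TPM in Usp7 WT and from 24.6 to 447 TPM in Usp7 cKO, with 0 of the 6 tested called. Htr2c RNA is known for 2 kinds of processing within 1 exon, the choice between a pair of donor sites and the editing of adenosines to inosine. The 95 bases between the donor sites (chrX:147169676-147169770, plus strand, GRCm38) are printed with the stretch of 5 codons that spans the editing sites in capitals.
Htr2c between the donor sites: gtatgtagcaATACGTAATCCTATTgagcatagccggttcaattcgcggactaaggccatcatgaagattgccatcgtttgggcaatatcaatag
Reads spliced from the upstream donor, which leave these bases out of the RNA, made up 19.6 ± 6.55% of the cluster in Usp7 WT (26 of 130 reads) and 16.3 ± 5.23% in Usp7 cKO (29 of 175 reads; SD, n = 5). The cluster was not called (edgeR adjusted p = 1). Editing was not measured.

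Of the dopamine receptors the 2 least abundant that could be tested rose. Drd5 encodes D5, a Gs-coupled receptor. Its level was 0.535, 1.22, 1.21, 0.607 and 0.939 TPM in Usp7 WT and 2.33, 2.59, 2.86, 1.34 and 2.40 TPM in Usp7 cKO. Drd4, which encodes the Gi-coupled D4 receptor of prefrontal neurons, was at 0.794, 0.542, 0.563, 0.466 and 0.458 TPM in Usp7 WT and 1.33, 1.34, 1.44, 1.26 and 1.03 TPM in Usp7 cKO. Neither gene overlapped between the groups. The changes were 1.003 for Drd5 (SE 0.211, limma adjusted p = 0.0111) and 0.74 for Drd4 (SE 0.155, limma adjusted p = 0.0106). Both rest on few reads, 13 to 64 per library for Drd5 and 13 to 55 for Drd4. An antisense gene, Gm26560, overlaps Drd5 and had 0.245 TPM in Usp7 WT, against 0.343 TPM in Usp7 cKO.

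Drd1 and Drd2, the D1 and D2 receptors of the direct and indirect pathways of the striatum, were not called and varied widely within each group. Drd1 was at 12.2, 13.0, 14.5, 18.1 and 25.8 TPM in Usp7 WT and 28.4, 15.4, 10.3, 22.0 and 31.2 TPM in Usp7 cKO (log2 0.30, 95% interval -0.38 to 0.98). Drd2 was at 8.46, 9.08, 9.42, 13.0 and 24.6 TPM in Usp7 WT and 35.1, 11.4, 5.74, 27.6 and 39.7 TPM in Usp7 cKO (log2 0.68, 95% interval -0.47 to 1.82). Usp7 WT replicate 5 and Usp7 cKO replicates 1, 4 and 5 were the high libraries for both genes, and Usp7 cKO replicate 3 the low one. The same 4 libraries had the highest summed level of 9 striatal projection neuron markers, 661 TPM in Usp7 WT replicate 5 and 709, 699 and 889 TPM in Usp7 cKO replicates 1, 4 and 5, against 238 to 409 TPM in the other 6. None of the 9 markers was called or at 0 in all libraries. The part of striatal tissue in these values was not tested beyond the fit with that sum as a covariate, given below.

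**Figure D2:**
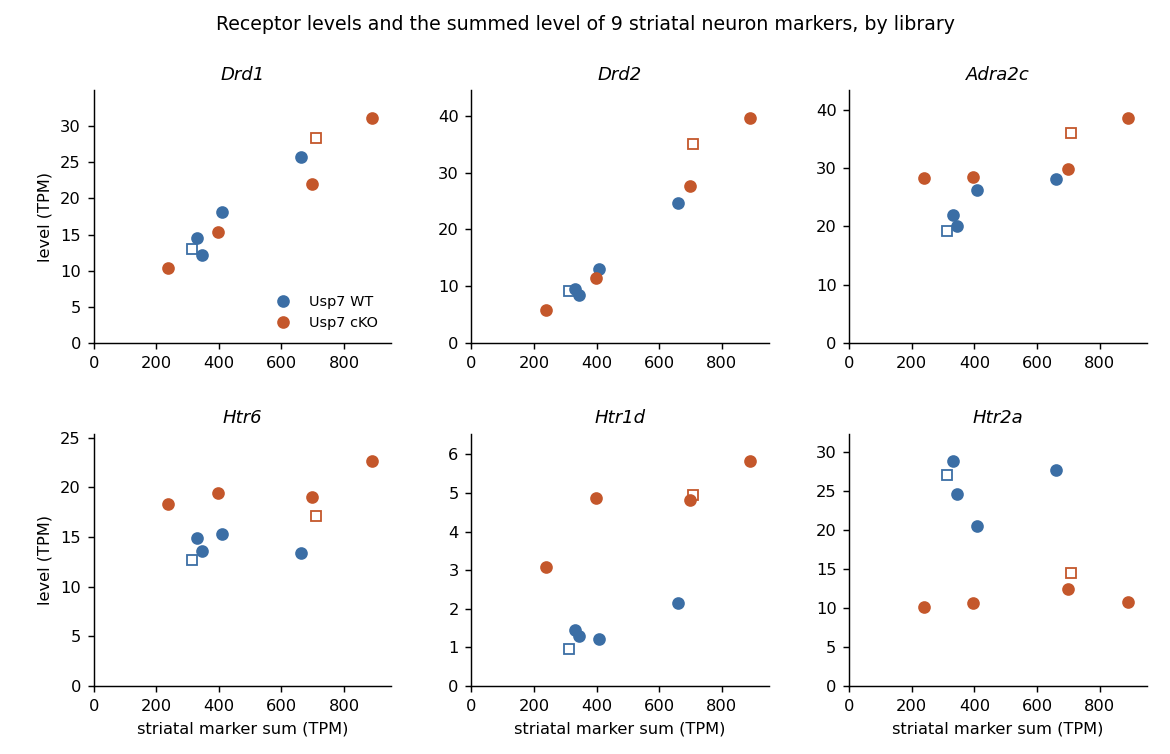
Level of 6 receptor genes (vertical axes, TPM) against the summed level of 9 striatal projection neuron markers (horizontal axes, TPM), 1 point per library, with the libraries of discordant sex as open squares. Drd1 and Drd2 are highest in the 4 libraries with sums of 661 to 889 TPM, and the levels of Htr1d, Htr6 and Htr2a do not overlap between the genotypes.

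The Drd2 transcript exists in a long form, D2L, and a short form, D2S, which differ by an exon of 87 bases in the third intracellular loop. That exon is chr9:49403194-49403280 (plus strand, GRCm38) and is printed in capitals, with 10 bases of each neighbouring exon in lower case.
Drd2 exon of the long form: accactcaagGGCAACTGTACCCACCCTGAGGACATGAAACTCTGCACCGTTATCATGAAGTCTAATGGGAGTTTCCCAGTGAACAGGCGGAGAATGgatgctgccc
Reads that skip it made up 6.19 ± 6.48% of the spliced reads of the cluster in Usp7 WT (15 of 246 reads) and 14.8 ± 10.3% in Usp7 cKO (48 of 492 reads; SD, n = 5). The difference was within the spread between libraries and the cluster was not called (edgeR adjusted p = 1).

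The adrenergic receptors split by subtype. All 3 α1 receptors, which couple to Gq, had lower means in Usp7 cKO, and Adra1a and Adra1b were called. Adra1b was at 34.5, 31.4, 35.4, 29.2 and 33.6 TPM in Usp7 WT and 25.3, 28.5, 25.5, 27.5 and 22.9 TPM in Usp7 cKO (log2 -0.33, SE 0.0768, limma adjusted p = 0.0168). The groups did not overlap. Adra1a was at 21.9, 18.3, 21.2, 17.1 and 24.9 TPM in Usp7 WT and 15.4, 16.5, 17.3, 14.7 and 13.8 TPM in Usp7 cKO (log2 -0.39, SE 0.102, limma adjusted p = 0.0282). Usp7 WT replicate 4 lay below Usp7 cKO replicate 3, and the call was lost without any of Usp7 WT replicates 1, 3 and 5 or Usp7 cKO replicates 2, 4 and 5 (adjusted p 0.0522 to 0.0688). Adra1d, the most abundant of the 3, was at 92.5, 81.7, 86.1, 77.0 and 91.5 TPM in Usp7 WT and 62.4, 79.9, 90.7, 62.8 and 59.7 TPM in Usp7 cKO. Its change of -0.28 (limma adjusted p = 0.0953) was not called, and Usp7 cKO replicates 2 and 3 lay within the Usp7 WT range. Without Usp7 cKO replicate 3 it was called (log2 -0.36, adjusted p = 0.0251). The antisense gene Gm14285 overlaps Adra1d and had 7.17 TPM in Usp7 WT, against 4.95 TPM in Usp7 cKO.

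For Adra1b, RefSeq also lists 2 start sites, of which the reads lie beside 1, and the 250 bases before each are printed to show the contrast. Both are on the minus strand of GRCm38.p6, chr11:43836490-43836739 and chr11:43901238-43901487, with matches to the motifs named for Htr1d in capitals.
Adra1b start beside the reads: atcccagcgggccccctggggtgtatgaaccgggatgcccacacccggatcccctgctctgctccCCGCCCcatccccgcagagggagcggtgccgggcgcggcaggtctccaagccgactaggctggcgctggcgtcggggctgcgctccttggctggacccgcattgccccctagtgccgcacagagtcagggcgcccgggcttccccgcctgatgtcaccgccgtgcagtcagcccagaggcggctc
Adra1b far start: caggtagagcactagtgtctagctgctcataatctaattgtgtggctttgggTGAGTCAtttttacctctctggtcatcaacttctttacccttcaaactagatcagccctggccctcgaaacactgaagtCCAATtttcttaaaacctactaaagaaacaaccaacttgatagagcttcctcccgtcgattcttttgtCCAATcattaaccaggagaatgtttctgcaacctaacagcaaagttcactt
The first holds 22 CpG pairs and 1 GC box match, and the second 3 CpG pairs, 2 CCAAT matches and 1 AP-1 match. The untranslated bin after the first start (43836282 to 43836332) held 17 to 66 reads per library. The bin at the far start (43901094 to 43901210) held 0 reads in Usp7 WT, under the limit of 3 reads that a count of 0 allows, and 1 read in Usp7 cKO. As in Htr1d, the start beside the reads is the one with more CpG pairs, in a gene that fell where Htr1d rose. RefSeq also lists 2 starts for Drd1, with 5 and 15 CpG pairs, and for Htr6, with 9 and 23. In Drd1 the donor site just after the start with 5 pairs took 100 of 158 spliced reads of its cluster in Usp7 WT. In Usp7 cKO it took 103 of 163, so the pattern of the 2 printed genes is not general. Reads at the starts of Htr6 are not given here.

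The α2 receptors couple to Gi and hold back noradrenaline release as autoreceptors. Adra2a fell and Adra2c rose. Adra2a was at 31.3, 29.4, 30.3, 31.2 and 33.3 TPM in Usp7 WT and 26.1, 24.8, 27.6, 25.6 and 23.3 TPM in Usp7 cKO (log2 -0.28, SE 0.0598, limma adjusted p = 0.0112). The groups did not overlap, and the spread within each was small. Adra2c was at 19.98, 19.1, 21.9, 26.3 and 28.1 TPM in Usp7 WT and 36.1, 28.4, 28.3, 29.7 and 38.7 TPM in Usp7 cKO (log2 0.48, SE 0.130, limma adjusted p = 0.0359). The groups met without overlapping, between Usp7 WT replicate 5 and Usp7 cKO replicate 3. Adra2c is also a gene of striatal neurons. It was not called without any of Usp7 WT replicates 1 to 3 or Usp7 cKO replicates 1 and 5 (adjusted p 0.0767 to 0.0871). Adra2b ranged from 0.271 to 0.684 TPM in Usp7 WT and from 0.204 to 1.77 TPM in Usp7 cKO, passed the minimum level only through the Usp7 cKO libraries, and was not called (log2 0.66, limma adjusted p = 0.193). Without Usp7 cKO replicate 3 it was called (log2 0.91, adjusted p = 0.0454).

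Among the β receptors, which couple to Gs, Adrb3 rose and Adrb1 was not called. Adrb3, best known from fat cells, was at 1.59, 2.32, 2.12, 1.72 and 2.34 TPM in Usp7 WT and 4.81, 5.38, 5.22, 3.97 and 4.29 TPM in Usp7 cKO. The groups were far apart (log2 1.06, SE 0.136, limma adjusted p = 0.000726). The antisense gene Gm45470 overlaps an inner stretch of Adrb3, 27228686 to 27240332, and had 0.438 TPM in Usp7 WT, against 1.003 TPM in Usp7 cKO. The bin of the coding exon outside that overlap (27227257 to 27228458 on chromosome 8) held 37, 56, 46, 36 and 41 reads in Usp7 WT and 96, 117, 102, 98 and 95 reads in Usp7 cKO. Adrb1, the main β receptor of cortex, was at 64.8, 47.5, 48.0, 59.8 and 64.2 TPM in Usp7 WT and 52.2, 39.3, 51.7, 41.9 and 35.9 TPM in Usp7 cKO. Its groups overlapped (log2 -0.36, SE 0.135, limma adjusted p = 0.111).

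The muscarinic receptors held the most abundant gene of the 30, Chrm1, and it fell. Chrm1 encodes M1, the main Gq-coupled muscarinic receptor of pyramidal neurons. Its level was 148, 138, 148, 150.4 and 169 TPM in Usp7 WT and 122, 119, 115, 116 and 104 TPM in Usp7 cKO. No library crossed between the groups, and the change was -0.38 (SE 0.0616, limma adjusted p = 0.00272). Chrm3, which encodes M3, the other Gq-coupled muscarinic receptor with a high level here, was at 41.8, 43.6, 46.2, 45.3 and 42.9 TPM in Usp7 WT and 28.2, 29.6, 36.2, 25.3 and 27.2 TPM in Usp7 cKO (log2 -0.59, SE 0.0869, limma adjusted p = 0.00169). The groups did not overlap, with Usp7 cKO replicate 3 the nearest to Usp7 WT. Chrm3 spans other annotated transcripts, of which the intronic Gm47405 on the same strand went from 5.59 to 3.08 TPM on average.

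The Gi-coupled muscarinic receptors differed little. Chrm4 encodes M4, a receptor of striatal and cortical neurons, and was at 84.9, 71.1, 72.9, 98.7 and 81.3 TPM in Usp7 WT and 100.4, 70.9, 74.1, 78.6 and 78.9 TPM in Usp7 cKO. The groups overlapped and the change was -0.02 (95% interval -0.24 to 0.20). Chrm2, the M2 autoreceptor of cholinergic terminals, ranged from 7.86 to 10.6 TPM and from 7.63 to 10.46 TPM (log2 -0.01, 95% interval -0.26 to 0.24). Chrm5, which encodes the Gq-coupled M5, ranged from 0.352 to 1.34 TPM and from 0.541 to 1.15 TPM, on 4 to 18 reads per library, too few to show a difference of its size (log2 0.32, 95% interval -0.22 to 0.85).

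**Figure D3:**
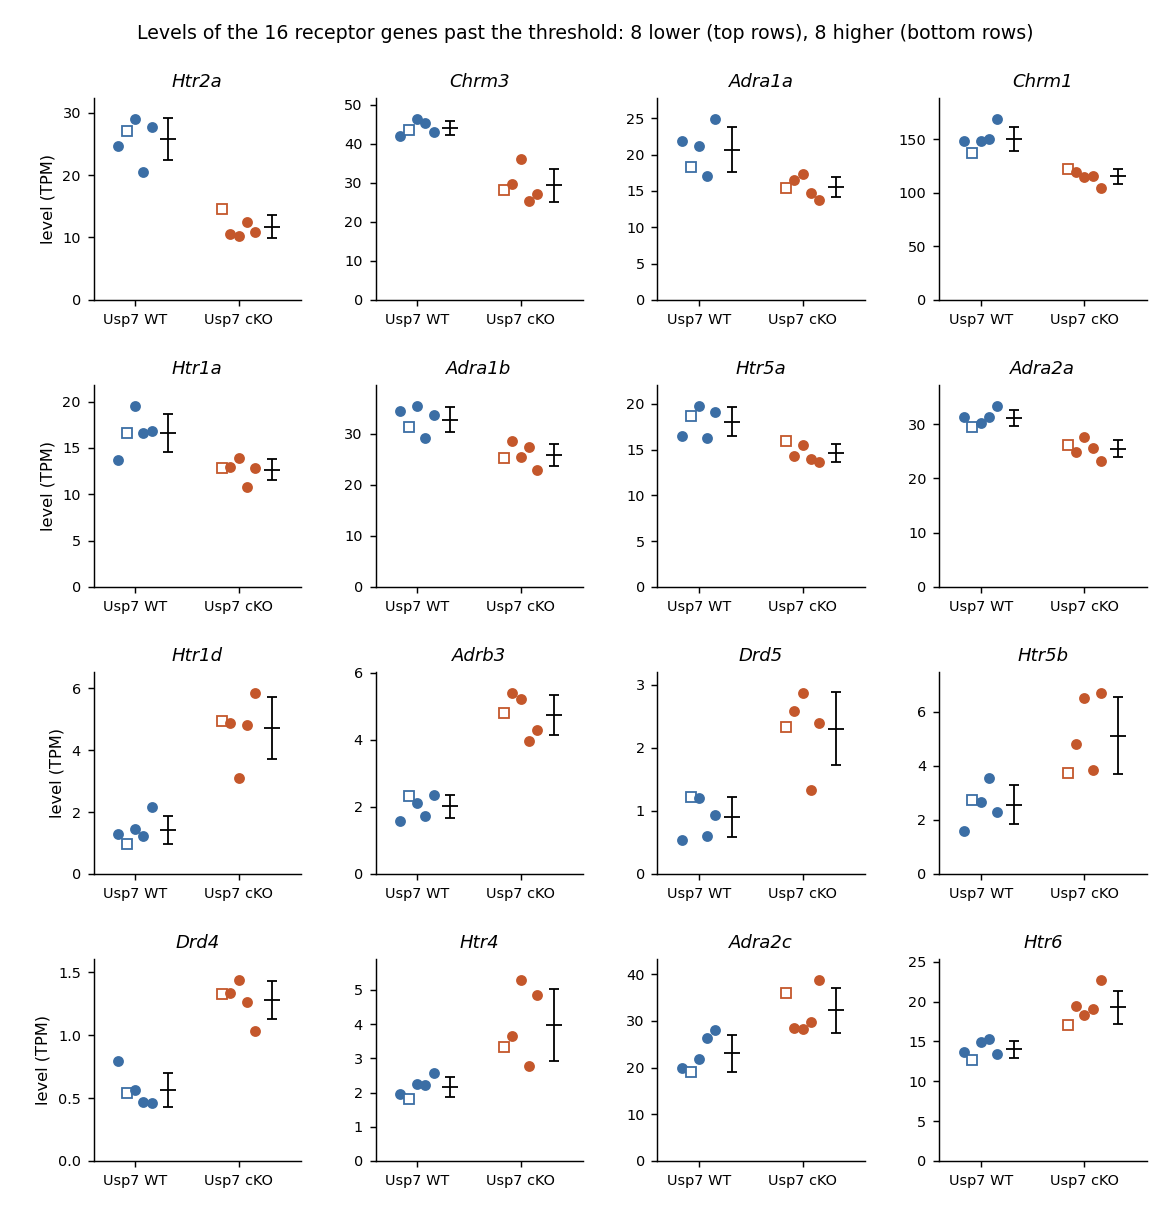
Level in TPM (vertical axes from 0) of each receptor gene past the threshold in the 5 Usp7 WT and 5 Usp7 cKO libraries, with the mean and SD in black beside each group and the libraries of discordant sex as open squares. The top rows hold the 8 genes that were lower, where Htr1a and Adra1a overlap between the groups, and the bottom rows the 8 that were higher, with no overlap.

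Grouped by the G protein they couple to, a grouping chosen after the values were seen, the calls were as follows, where over all genes 9.22% were higher and 4.67% lower. The difference between the classes was not tested. Of the 9 Gq-coupled receptors 5 fell (Htr2a, Adra1a, Adra1b, Chrm1 and Chrm3) and 0 rose, with a median change of -0.33. Of the 7 Gs-coupled receptors 4 rose (Htr4, Htr6, Drd5 and Adrb3) and 0 fell, with a median of 0.45. Of the 12 Gi-coupled receptors tested 3 rose (Htr1d, Drd4 and Adra2c) and 3 fell (Htr1a, Htr5a and Adra2a). Summed over its 9 genes, the Gq-coupled class ranged from 349 to 403 TPM in Usp7 WT and from 255 to 308 TPM in Usp7 cKO, and the groups did not overlap. The Gs-coupled sum ranged from 87.9 to 118 TPM and from 96.8 to 117 TPM, and the Gi-coupled sum from 191 to 232 TPM and from 189 to 260 TPM, so both overlapped.

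Level and direction went together among the receptors. Of the 15 receptors averaging 10 TPM or more, 8 fell and 2 rose, and of the 14 tested below that level 6 rose and 0 fell. Over all genes tested, 897 of the 10760 averaging 10 TPM or more fell and 1167 rose, and 391 of the 16820 below it fell and 1377 rose. The Gq-coupled receptors called were all in the upper class and the Gs-coupled ones, other than Htr6, in the lower class, so coupling and level cannot be told apart here.

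**Figure D4:**
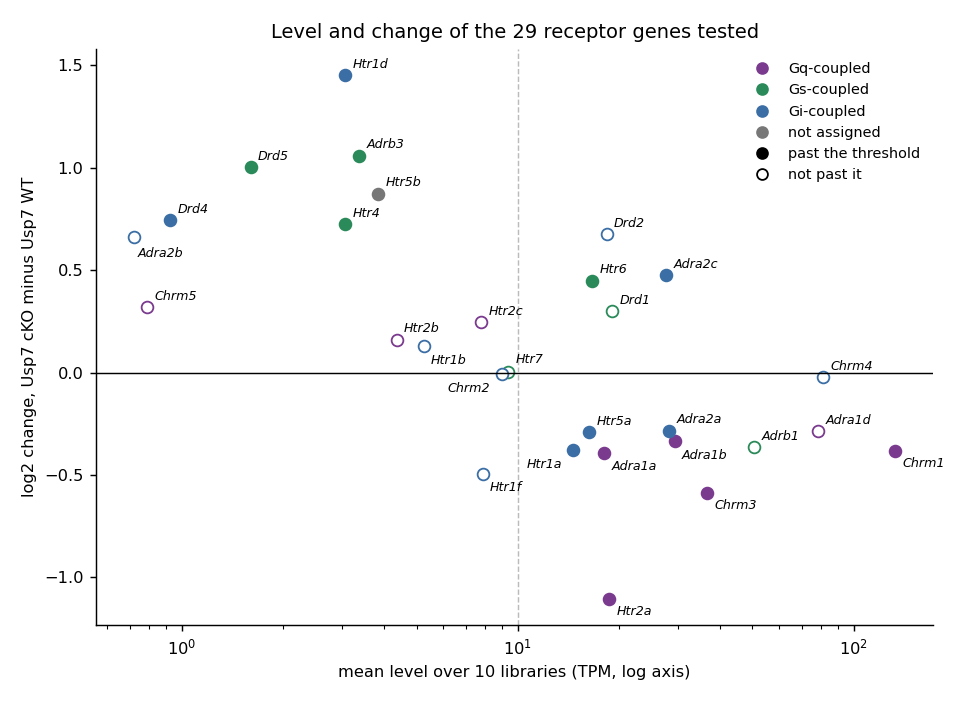
Log2 change in Usp7 cKO (vertical axis) against the mean level over 10 libraries (horizontal log axis, TPM), 1 point per receptor gene tested, with colour for G protein coupling, filled points past the threshold and a dashed line at 10 TPM. Filled points to the left of the line are all above 0, and of those to its right only Htr6 and Adra2c are.

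The other genes of monoamine and acetylcholine signalling, taken from 8 fixed lists of 94 genes, were called in 23 of 85 tested (27.1%, against 13.9% of all genes), 14 higher and 9 lower. No enzyme of transmitter synthesis or breakdown was called (0 of 12 tested). Of the 7 transporters tested 4 rose and 0 fell. Slc18a3, the vesicular transporter of acetylcholine, rose from 3.83 ± 0.575 to 9.55 ± 1.09 TPM (SD, n = 5; log2 1.22). Slc22a3, a low-affinity monoamine carrier, rose from 2.08 ± 0.496 to 5.90 ± 0.703 TPM (log2 1.32). Slc6a3, the dopamine transporter, had 0.121 ± 0.0766 TPM in Usp7 WT, against 1.59 ± 0.264 TPM in Usp7 cKO, and it passed the minimum level only through Usp7 cKO. The serotonin and noradrenaline transporters Slc6a4 and Slc6a2 stayed under 0.5 TPM in every library.

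Among the 11 ion channel receptors for serotonin and acetylcholine tested, the nicotinic subunits Chrna3 (log2 0.70) and Chrna4 (0.27) rose. Chrna6 (-0.83) and Chrnb3 (-0.97), subunits that assemble together, fell from 1.01 to 0.360 TPM and from 0.873 to 0.203 TPM, and both passed the minimum level only through Usp7 WT. The 3 histamine and trace amine receptors tested were not called. Downstream of the receptors, Gnai2, a Gi α subunit, was the single G protein α subunit called of 10, from 103 ± 4.83 to 144 ± 7.33 TPM (log2 0.48). The cyclase Adcy7 had the largest rise among the cyclases, phospholipases and kinases, from 6.38 ± 0.782 to 24.7 ± 2.75 TPM (log2 1.87). In that list of 23, the phospholipase Plcb2 (0.63) was also among the 4 that rose, and 3 fell, the protein kinase A subunit Prkar1b (-0.30) and the protein kinase C genes Prkca (-0.26) and Prkcb (-0.37).

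Of the 15 receptor kinases, arrestins and RGS proteins, 3 rose and 3 fell. Rgs4, which speeds the shut-off of Gq and Gi signals, fell from 447 ± 23.4 to 300.1 ± 40.4 TPM (log2 -0.58) and Rgs14 from 22.8 ± 1.66 to 14.9 ± 2.21 TPM (log2 -0.61). The receptor kinase Grk2 fell by 0.19 on the log2 scale while its relative Grk3 rose by 0.46. Arrb2, an arrestin, rose by 0.29 and Rgs10 by 0.59. Kcnj3, a channel subunit opened by Gi-coupled receptors, was the single potassium channel gene called of 4 (log2 -0.31).

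Markers of other cells were called to differing extents, where 13.9% of all genes were. Besides the glutamatergic list, 5 of 6 microglial markers fell, with a summed level of 203 to 232 TPM in Usp7 WT and 144 to 169 TPM in Usp7 cKO. Of 6 thalamic and habenular markers 2 rose, with sums of 26.0 to 36.3 and 40.4 to 51.2 TPM. Of 5 hippocampal markers 1 rose, and of 6 astrocyte markers 1 rose. Of 9 interneuron markers 1 fell, Pvalb. None of the 7 oligodendrocyte or 9 vascular and meningeal markers was called. No marker of these lists was at 0 in every library, and the part of such cells in the receptor changes was not tested.

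The receptor calls depended on which libraries entered and on how sex was assigned. Without both libraries of discordant sex, 9 of the 29 receptor genes were called, against 7.89% of all genes, and 8 of the 16 main calls were kept: Htr1d, Htr6 and Adrb3 higher, and Htr2a, Adra1a, Adra2a, Chrm1 and Chrm3 lower. Adrb1 was the added one (log2 -0.52, limma adjusted p = 0.0488). The calls lost kept their direction, with log2 changes of 1.02 for Drd5 and 1.01 for Htr5b (both adjusted p = 0.0501), 0.71 for Drd4 (0.0715), 0.66 for Htr4 (0.0783) and 0.36 for Adra2c (0.177). On the lower side they were -0.34 for Adra1b (0.0725), -0.31 for Htr5a (0.0912) and -0.38 for Htr1a (0.120). With sex by transcripts in place of labelled sex, 3018 genes were called, 1712 higher and 1306 lower. The median change over all genes tested was then 0.016, against 0.062 in the main analysis. In that fit 13 of the 16 receptor calls were kept. Those of Htr1a (limma adjusted p = 0.0567), Htr5a (0.0521) and Adra2c (0.0823) were lost. The count of lower receptors went from 8 to 5 on leaving out any 1 of Usp7 WT replicates 3 and 5 and Usp7 cKO replicates 2, 4 and 5. Htr1d, Htr2a, Htr6, Adra2a, Adrb3, Chrm1 and Chrm3 were called in each of the 22 alternatives run for the gene levels.

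Other scalings and tests added calls. With TPM rescaled by size factors, 3008 genes were lower and 2643 higher, where the main analysis had 1288 and 2544, and 11 receptor genes were lower, against 10.9% of all genes, and 8 higher. The 3 added were Htr1f (log2 -0.56, adjusted p = 0.0297), Adra1d (-0.35, 0.0272) and Adrb1 (-0.42, 0.0375). With edgeR on the bin counts, 3295 genes were higher and 3253 lower, and 20 of 30 receptor genes were called, against 27.2% of all genes, among them the same 16, those 3 and Adra2b (log2 1.52, adjusted p = 0.0397). With the summed level of the striatal markers as a further covariate, 3002 of 27580 genes were called, where the main analysis had 3832. In that fit 12 of the 29 receptor genes were called, and 12 of the 16 calls were kept. Those of Htr1a, Htr5a, Adra1a and Adra2c were lost (adjusted p 0.0514 to 0.0835), the change of Drd2 went from 0.68 to 0.07 and that of Drd1 from 0.30 to -0.05.

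Exon use was tested in the 22 receptor genes with at least 2 bins of sufficient depth, and 1, Adra2a, was called, against 2.85% of all genes tested. Its most upstream bin (chromosome 19, 54044151 to 54045259, plus strand) is the 5′ untranslated stretch of the annotated transcript that starts farthest upstream, and it ends at the start that RefSeq gives. Reads in this bin numbered 46, 48, 38, 39 and 48 in Usp7 WT and 48, 58, 64, 81 and 50 in Usp7 cKO, while the other bins held 1128 to 1375 reads in Usp7 WT and 899 to 1100 reads in Usp7 cKO. In CPM (reads scaled to a common total over all bins) the upstream bin was at 0.898 ± 0.126 in Usp7 WT and 1.28 ± 0.210 in Usp7 cKO, and the other bins at 24.9 ± 1.43 and 20.5 ± 0.766 (SD, n = 5), given as a description of the called bin. The bin's share of the gene's reads was 3.48 ± 0.520% in Usp7 WT and 5.86 ± 0.783% in Usp7 cKO. Its change relative to the gene was 0.53 on the log2 scale (edgeR adjusted p = 0.00251), and it was not called without Usp7 cKO replicate 4 (0.45, adjusted p = 0.0758). In the authors' deposited table its log2 change of usage is 0.74.

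**Figure D5:**
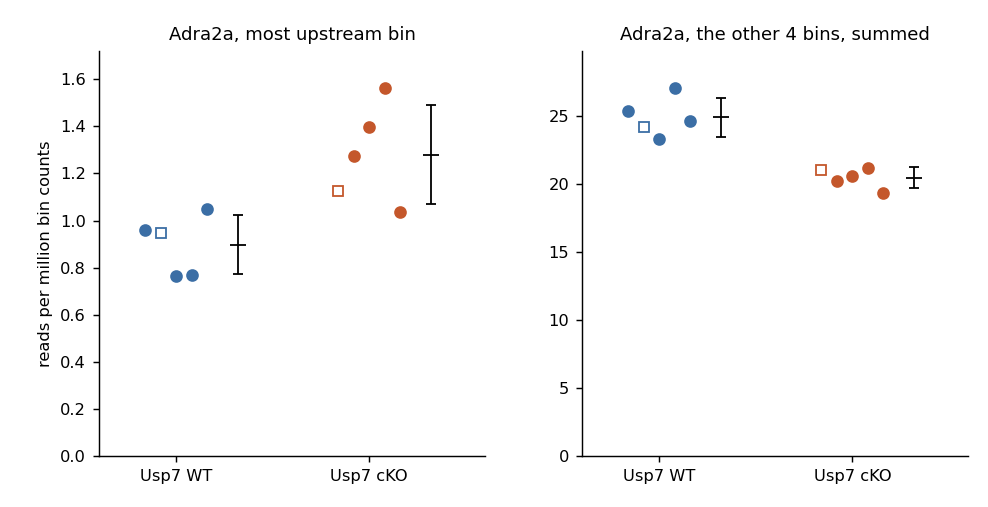
CPM over all bins (vertical axes from 0) in the most upstream bin of Adra2a and in its other 4 bins summed, for each Usp7 WT and Usp7 cKO library, with mean and SD in black and libraries of discordant sex as open squares. The upstream bin is higher in Usp7 cKO with an overlap of 1 library (0.765 to 1.05 against 1.04 to 1.56), and the other bins are lower with no overlap (23.3 to 27.1 against 19.3 to 21.2).

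Spliced reads were tested for 6 receptor genes with clusters of sufficient depth (Chrm1, Chrm3, Drd1, Drd2, Htr2c and Htr7), and 0 were called with edgeR, against 0.22% of all clusters tested, nor did any reach an unadjusted p under 0.05. In Chrm1, whose cluster held 4114 reads in Usp7 WT and 2785 in Usp7 cKO, the long first intron that skips the middle exon took 52.9 ± 3.61% and 50.7 ± 4.24% of the reads (SD, n = 5). The fall of Chrm1 thus came with no detectable shift between its 5′ exons.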

How the data were processed

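RNA from the cortex of 10 mice was sequenced after ribosomal RNA removal, per the labels' protocols. The authors deposited gene levels as TPM, read counts per exon bin and per intron cluster, and for bins a p-value and a log2 change from DEXSeq, per the file headers. Alignment to GRCm38 and counting are recorded only as a set of tools in the submitters' processing notes: SAMtools 1.10, featureCounts, Subread and STAR 2.7.9a. Whether counting used the strand is not given in the sources used here.

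Gene levels were tested with limma 3.58.1 (R 4.3.3; trend and robust) on log2(TPM + 0.5), for genes averaging 0.5 TPM or more, with labelled sex as covariate and Benjamini-Hochberg adjustment at 0.05. A fold change on this scale understates the change of low genes. Exon bins (mean of at least 10 reads) and introns (at least 5) were tested with the edgeR 4.0.16 quasi-likelihood test of usage, and combined per gene or cluster by Simes. The deposited intron column of Usp7 WT replicate 1 held even values throughout and was halved, and intron counts then summed to between 3388310 and 4367711 per library. Alternatives were DESeq2 1.42.0 and edgeR on summed bin counts, other pseudocounts, filters and scalings, sex by transcripts, a block by title ending, and leaving out libraries. Scripts were tested on simulated data.

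All 30 receptor genes are accounted for. Values are given per library for those called, the 6 others with the highest mean TPM and those called on bins, and up to 3 called genes in each direction with the smallest p are named from each pathway list, except 1 gene that is not reported here. The members and lists were chosen with earlier results of these data known. Gene positions are from GENCODE M21, and promoters, found for 24 of the 30 genes, are from RefSeq.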

Additional observations from a re-analysis of the deposited data

Results flagged for a closer look

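In 3 of the 60 groups of 5 libraries examined (30 receptor genes in 2 genotypes), 1 library stood apart from the other 4 by a gap that passed Dixon's 95% limit. Chance flags about 1 group in 20. For Drd2, Usp7 WT replicate 5 was at 24.6 TPM, where the other Usp7 WT libraries ranged from 8.46 to 13.0 TPM, and its striatal marker sum was 661 TPM. For Chrm4, Usp7 cKO replicate 1, a library of discordant sex, was at 100.4 TPM, where the others ranged from 70.9 to 78.9 TPM, and its striatal marker sum was 709 TPM. The highest striatal marker sum, 889 TPM, was in Usp7 cKO replicate 5, where Chrm4 was at 78.9 TPM. For Chrm5, Usp7 WT replicate 4 was at 1.34 TPM, where the others ranged from 0.352 to 0.609 TPM, on few reads. None of the 3 genes was called between the genotypes.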

How the results depend on the processing

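The labels do not name the pairs, but the sample titles end in 1 of 3 numbers, each spread evenly over genotype, with no stated meaning. Libraries of ending 1 were all labelled male, those of ending 2 all female, and ending 3 held both. With this number as a replicate block, chosen after seeing the data, 3654 genes, 427 genes on exon bins and 19 intron clusters were called, and 8 receptor genes higher and 6 lower, all among the 16; Htr1a (adjusted p = 0.0592) and Htr5a (0.0608) were not. Deviations from the group means correlated across genes by 0.0520 on average between genotypes at the same ending (-0.0160 to 0.0924, 9 pairs) and -0.0292 otherwise (16 pairs). Each of the 10 libraries was closest to one of its own ending. This is a hint from the data, not the design, and ending and labelled sex partly go together. Of all genes, 3832 were called in the main analysis, 6552 with DESeq2, 6548 with edgeR on bin counts and 2183 without both libraries of discordant sex, and 2789 to 3586 on leaving out 1 library. DESeq2 gave 3050 higher and 3502 lower. Receptor genes called higher numbered 8, and 3 without both discordant libraries (6 to 8 without 1 library). Those called lower numbered 8, and 5 with the striatal marker sum as covariate, an alternative chosen after seeing the data (5 to 9 without 1 library). Genes called on exon bins numbered 397, and 162 with sex by transcripts, 215 without both discordant libraries and 239 to 368 without 1 library, with Usp7 WT replicates 1 (246) and 2 (257) and Usp7 cKO replicate 5 (239) decisive. Intron clusters called numbered 23, and 15 at a doubled minimum count and 13 to 25 without 1 library, the low counts being those without Usp7 WT replicates 1 (14) and 2 (15) and Usp7 cKO replicates 2 (13), 4 (14) and 5 (15).

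The receptor changes that turned sign were all uncalled. Htr1b was -0.0395 with the striatal covariate and -0.0476 without both discordant libraries. Htr7 was -0.0284 with DESeq2, -0.0174 with edgeR, -0.0570 with rescaled TPM, -0.00416 with sex by transcripts and -0.0639 to 0.106 without 1 library. Drd1 was -0.0465 with the striatal covariate. Chrm2 was 0.0205 with sex by transcripts and -0.0793 to 0.0471 without 1 library, and Chrm4 was -0.103 to 0.0312 without 1 library. The cause was not tested. Over the receptor genes and alternatives, 550 values kept direction and side of the threshold, 49 lost a call, 15 gained one and 21 turned sign. Depth limits Drd3, Drd4, Drd5, Chrm5 and Adra2b.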
